A study of Mus musculus with 20 samples.

Results

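Transcripts of 10 genes named for liver plasma proteins were followed, pool by pool, through an array study of the mouse aorta. The genes Alb, Apoa1, Apoa2, Apoc3, Ttr, Fga, Fgb, Fgg, Ahsg and Fabp1 were chosen as a fixed list of symbols, with their signals in these arrays already known, and they are 10 of the 18193 genes measured by a probe set with exactly 1 gene symbol. They were read by 17 probe sets, no brightness filter was applied, and the probe set with the highest mean signal stood for each gene. All but Fabp1 encode secreted plasma proteins; Fabp1 encodes a fatty acid binding protein that stays in the cytosol of liver, gut and kidney cells.

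Each of the 20 arrays held total RNA pooled from 8 aortas, so a replicate was a pool and not a mouse. The drug experiment used adult C57BL/6J mice fed rosiglitazone, a thiazolidinedione that activates the nuclear receptor PPARγ, at 3 mg/kg/day for 2 days (3 pools), at 3 mg/kg/day for 14 days (3 pools), at 10 mg/kg/day for 2 days (3 pools) or at 10 mg/kg/day for 14 days (2 pools), against mice on standard chow (3 pools). The genetic experiment used P465L mice, whose endogenous Pparg locus carries a knocked-in mutation that the labels call dominant negative and that is therefore present in every tissue (3 pools), against wild-type littermates (3 pools), all on standard chow. The strain of the littermates, the zygosity of the P465L mice and the sex and exact age of the animals are not given in the sources used here.

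Hepatocytes make most of the protein of blood plasma. Albumin and transthyretin carry fatty acids, hormones and retinol-binding protein, the apolipoproteins form the coat of lipoprotein particles, and the 3 fibrinogen chains assemble into the precursor of the clot. Their genes share a set of liver transcription factors, among them HNF1 and HNF4, and several of them, such as those of the apolipoproteins and Fabp1, are textbook targets of PPARα in liver. Smooth muscle, endothelium and fibroblasts, the cells of the aortic wall, are not known as main sources of these messages.

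The promoters below are shown because 4 of the 8 members with an entry in the RefSeq promoter table (build GRCm38.p6) held GTTAAT. This is the core of the site that HNF1 binds, and it was searched for in the 250 bases before the start site on either strand. Over all 32851 promoters of that table the share with this motif was 6.4%. The first 4 lines are these promoters and the last is Apoa1, which had no match in its window. Each runs 5′ to 3′ along the gene's own strand over the last 120 bases before the start site, and capitals mark GTTAAT or its reverse complement.
Alb, chr5:90460750-90460869, + strand: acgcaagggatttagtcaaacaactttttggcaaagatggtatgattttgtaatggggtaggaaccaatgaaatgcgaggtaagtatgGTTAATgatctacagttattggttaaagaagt
Fga, chr3:83026033-83026152, + strand: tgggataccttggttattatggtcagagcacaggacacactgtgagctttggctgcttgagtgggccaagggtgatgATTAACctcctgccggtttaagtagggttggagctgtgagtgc
Fgb, chr3:83049864-83049983, - strand: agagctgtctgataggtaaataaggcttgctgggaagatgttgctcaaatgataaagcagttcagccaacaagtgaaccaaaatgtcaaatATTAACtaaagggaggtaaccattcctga
Fabp1, chr6:71199759-71199878, + strand: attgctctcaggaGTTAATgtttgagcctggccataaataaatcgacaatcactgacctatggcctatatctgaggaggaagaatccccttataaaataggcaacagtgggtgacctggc
Apoa1, chr9:46228510-46228629, + strand: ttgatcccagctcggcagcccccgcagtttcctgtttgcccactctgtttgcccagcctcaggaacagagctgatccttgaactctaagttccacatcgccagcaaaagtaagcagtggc

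The match lay at positions -32 to -27 in Alb, -43 to -38 in Fga, -29 to -24 in Fgb and -107 to -102 in Fabp1, counted from the start site. TATAAA was found in 2 of the 8 members, Apoa2 and Fabp1, and in 12.4% of all promoters. CAAAGGTCA, a form of the HNF4 site, was in 0 of 8 members and in 0.4% of all promoters, and the direct repeat DR1, which HNF4 and PPAR with RXR can bind, was in 0 of 8 members and in 11 promoters overall. The matches in these members do not overlap each other, and a match is a description of the sequence. The genes also form neighbourhoods: Fgg spans 83007724 to 83015056, Fga 83026153 to 83033627 and Fgb 83042246 to 83049863 on chromosome 3, and Apoa1 spans 46228630 to 46230469 and Apoc3 46233050 to 46235636 on chromosome 9.

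The samples carried a strong aortic signature. Acta2, smooth muscle actin, had signals of 100906 to 164875 in the 20 pools, and Myh11, smooth muscle myosin, had 61254.7 to 91897.7. Every array had been scaled to a trimmed mean of 1500, its median signal lay between 321.3 and 450.7, and Pearson's r between pools of a group, across genes, was 0.964 to 0.982. One pool of rosiglitazone at 3 mg/kg/day for 2 days, pool C, stood apart by kidney and lung markers, with Kap at 34218.1 and Scgb1a1 at 5760.4, against medians over the 20 pools of 1570.2 and 306.4. Because these are bulk samples, fewer cells of a type and less RNA per cell cannot be told apart.

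The P465L pools had the lowest group mean for 5 of the 10 transcripts, and the wild-type littermates had the highest for all 10. On the log2(signal + 72) scale used throughout, where 72 is the 20th percentile of all signals, the P465L minus wild-type difference ranged from -3.45 for Alb to -0.53 for Fgb, with a median of -1.87 over the 10 genes and of -0.01 over all genes. All P465L pools were below all wild-type pools for 8 of 10, where 6.76% of all genes separated in that way, and the fit called 1 of the 10, Fga, where it called 0.0165% of genes. The list was picked on this contrast, so these counts describe the choice and are not read further, and the differences below carry a standard error (SE) but no test.

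**Figure D1:**
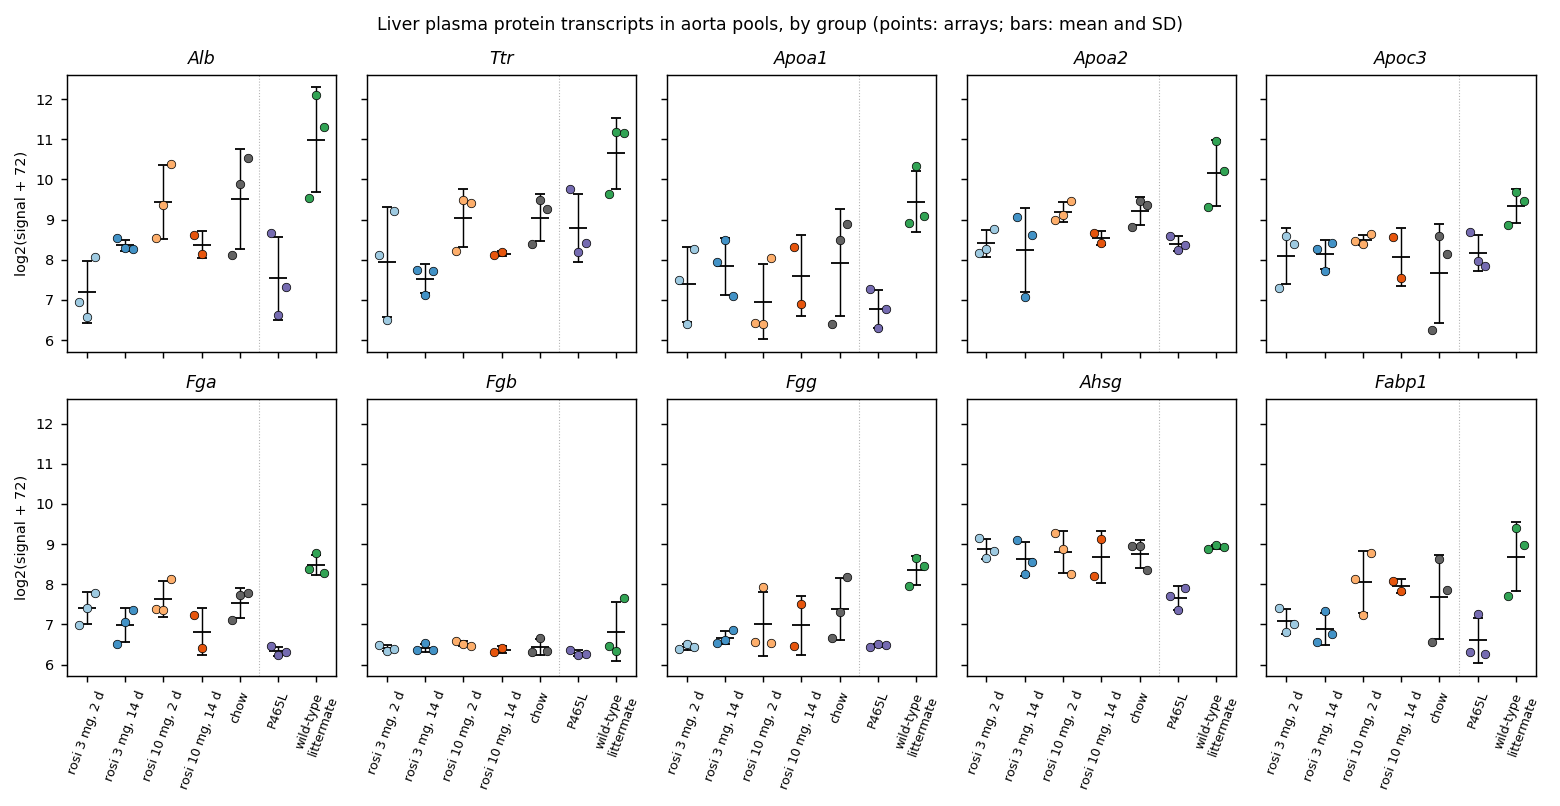
Each panel plots log2(signal + 72) of 1 gene in every array, with the group mean and SD as bars, for the 4 rosiglitazone groups (rosi, mg/kg/day and days), chow, P465L and wild-type littermates. The wild-type littermate mean is the highest of the 7 in all 10 panels, and Fgb stays near the floor except in 1 wild-type pool.

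Among the carrier proteins, Alb encodes albumin, the main protein of plasma. Its signal was 333.1, 27.0 and 87.3 in P465L pools A, B and C, against 673.9, 4337.6 and 2480.9 in wild-type pools A, B and C, which gives 149.1 ± 162.1 and 2497.5 ± 1831.9 (SD, n = 3 each). The groups did not overlap, although the spread within each was large, and the difference was -3.45 ± 0.66 (SE), 10.95-fold on the offset scale. Ttr encodes transthyretin, the carrier of thyroxine and retinol-binding protein. It read 789.9, 221.9 and 271.8 in P465L pools, against 725.1, 2233.9 and 2203.2 in wild-type pools, so P465L pool A lay above wild-type pool A and the groups overlapped, with a difference of -1.86 ± 0.57. The other 3 probe sets of Ttr tracked this one with r of 0.68 to 0.88 over the 20 arrays. That with r of 0.88 read 144.6, 139.3 and 163.1 in P465L pools, against 288.3, 1930.3 and 1387.4 in wild-type pools. That with r of 0.87 read 267.0, 131.0 and 156.1 in P465L pools, against 450.2, 1793.4 and 1201.7 in wild-type pools. For both, the groups did not overlap. For that with r of 0.68 they did, as P465L pool B, at 160.1, lay above wild-type pool A.

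Apoa1, the main protein of high density lipoprotein, had 82.0, 6.8 and 37.1 in P465L pools, against 414.8, 1227.3 and 473.1 in wild-type pools. The groups did not overlap, the difference was -2.67 ± 0.64, and each of the other 3 probe sets of the gene also had its 3 P465L values below its 3 wild-type values, 1 of these reading 118.8, 92.7 and 114.4 in P465L pools against 483.2, 1032.7 and 564.0 in wild-type pools. Apoa2, the next most abundant protein of the same particle, had 316.3, 229.1 and 260.2 in P465L pools, against 569.5, 1934.9 and 1114.6 in wild-type pools, a difference of -1.77 ± 0.42 without overlap. Apoc3, an inhibitor of lipoprotein lipase on triglyceride-rich particles, had 343.0, 177.2 and 159.4 in P465L pools, against 397.2, 747.5 and 640.3 in wild-type pools. Its difference was the smallest of the apolipoproteins, at -1.17 ± 0.48, and the highest P465L pool was close to the lowest wild-type pool.

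The fibrinogen chains split into a pair with a clear gap and 1 near the floor. Fga, the alpha chain, had 15.7, 3.7 and 7.1 in P465L pools, against 260.0, 364.5 and 241.2 in wild-type pools. Every P465L value was under the offset of 72 and every wild-type value above it, and the difference was -2.14 ± 0.32. Fgg, the gamma chain, had 15.2, 19.6 and 17.2 in P465L pools, against 175.8, 328.5 and 276.7 in wild-type pools, a difference of -1.87 ± 0.39 without overlap. Fgb, the beta chain, had 10.6, 3.7 and 5.1 in P465L pools, against 16.2, 9.1 and 131.2 in wild-type pools. Only wild-type pool C exceeded the offset, the groups overlapped, and the difference of -0.53 ± 0.28 became -0.11 without wild-type pool C.

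Ahsg encodes fetuin-A, a plasma protein that binds calcium phosphate. It had 138.2, 91.4 and 169.4 in P465L pools, against 398.2, 431.6 and 414.1 in wild-type pools, a difference of -1.27 ± 0.32. Its wild-type pools were close together, at 414.6 ± 16.7 (SD, n = 3). It was the only one of the 10 whose highest single array lay outside the wild-type littermates, in pool A of rosiglitazone at 10 mg/kg/day for 2 days with 550.1. Fabp1, the cytosolic fatty acid carrier, had 7.5, 80.7 and 4.2 in P465L pools, against 137.4, 598.9 and 430.0 in wild-type pools, a difference of -2.08 ± 0.50 without overlap. Its other probe set read 6.7, 21.9 and 54.6 in P465L pools and 170.1, 630.6 and 562.3 in wild-type pools.

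Pools of a group were not alike, the wild-type littermates in particular. Centred over the 20 arrays and averaged over the 10 genes, the log2 level was -0.32, -0.86 and -0.75 in P465L pools A, B and C, against 0.62, 1.69 and 1.41 in wild-type pools A, B and C. Pool B of the wild-type littermates was the highest of all 20 arrays for 8 of 10 genes. Without that pool the mean difference over the 10 genes was -1.66, against -1.88 with it, and leaving out any other P465L or wild-type pool gave -2.19 to -1.78.

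Other liver genes were tested in the same fit (limma, Benjamini-Hochberg over 18193 genes). Of 139 genes on lists of other liver plasma proteins (73) and of liver enzymes, transporters and factors (66), 0 passed an adjusted p of 0.05 between P465L and wild-type pools, while 92 had a negative and 47 a positive difference and their median was -0.18. At an unadjusted p under 0.05, 20 were lower and 1 higher in P465L pools, where 3.11% of all genes were lower and 3.26% higher by the same rule. Much of both lists was dim in the aorta: 44 of the 139 had a median signal under 72.

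Given next are the 5 liver genes most like the mean of the 10 over the arrays. Because that likeness was measured over arrays that include these pools, a gap between P465L and wild-type pools follows from the choice, and the values are a description. Serpina1c, an alpha-1-antitrypsin gene with near-identical copies that its probe set may not separate, had 452.1, 183.9 and 175.5 in P465L pools, against 880.1, 4347.2 and 1727.8 in wild-type pools, a difference of -2.61 ± 0.66 (limma adjusted p = 0.407). F12, coagulation factor XII, had 5.1, 7.6 and 6.8 in P465L pools, against 131.3, 139.0 and 67.5 in wild-type pools, a difference of -1.21 ± 0.23 (limma adjusted p = 0.119). Mup3, a major urinary protein with many close copies, differed by -1.46 ± 0.31 (limma adjusted p = 0.22). The cytochromes P450 Cyp3a11 and Cyp2c29 differed by -1.28 ± 0.42 and -1.28 ± 0.40, with limma adjusted p of 0.625 and 0.6. None of these 5 passed the threshold. Over the full lists, 25 of the 139 genes had all P465L pools below all wild-type pools and 2 had them above, where 6.76% and 6.19% of all genes did.

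The 5 brightest genes of the same lists differed by -0.37 to 0.09, where the median over the 139 genes was -0.18. Cyp2e1, an ethanol-metabolising cytochrome that fat also expresses, had a mean signal of 23430.5 in P465L pools and 28823.8 in wild-type pools, a difference of -0.31 ± 0.31 (limma adjusted p = 0.892). Rarres2, the adipokine chemerin, had 25719.4 in P465L pools and 25843.9 in wild-type pools, with a difference of 0.00 ± 0.13. Itih4, Pon3 and Itih2 differed by -0.24 ± 0.14, 0.09 ± 0.12 and -0.37 ± 0.12, with limma adjusted p of 0.802, 0.925 and 0.6. For Itih2, an inter-alpha-trypsin inhibitor heavy chain, all 3 P465L pools, at 2621.5, 3073.8 and 2541.5, lay below the wild-type pools, at 3214.6, 3918.8 and 3577.4. A further list of 17 plasma protein genes that tissues outside the liver also express, such as those of apolipoprotein E and clusterin, had 0 genes past the threshold and a median difference of -0.09.

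**Figure D2:**
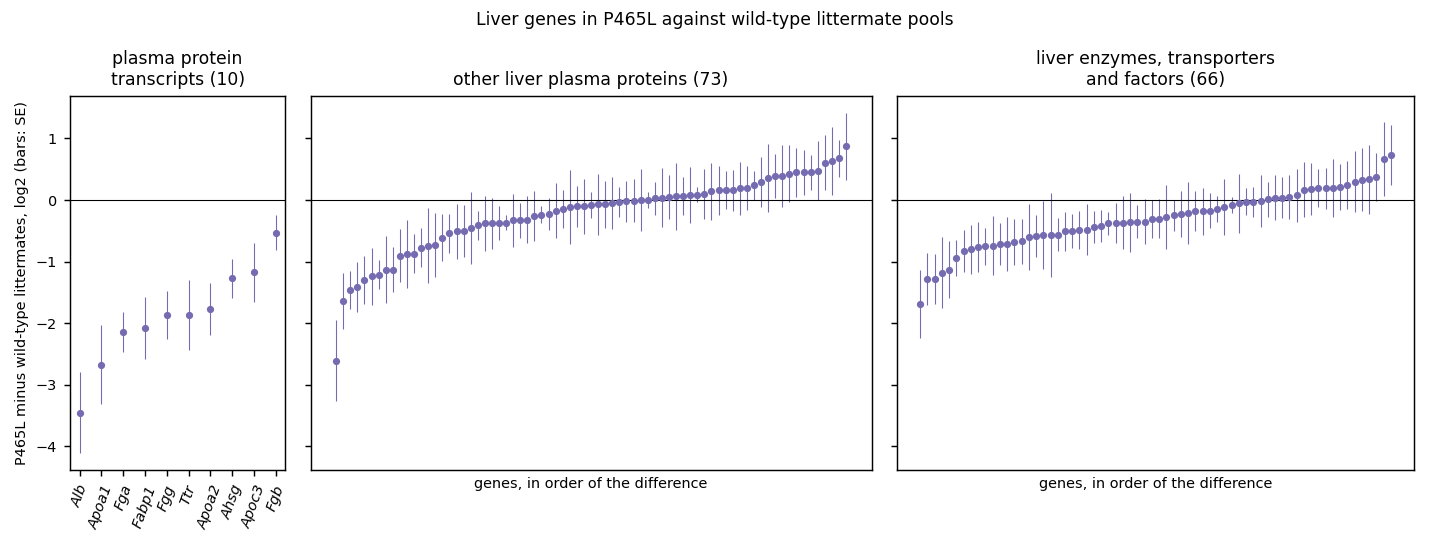
P465L minus wild-type littermate difference in log2(signal + 72) with its SE from the fit, n = 3 pools each, for the 10 plasma protein transcripts, 73 other liver plasma protein genes and 66 liver enzyme, transporter and factor genes, each panel sorted by the difference. All 10 of the first panel lie below 0, whereas 44 of 73 and 48 of 66 do in the others.

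Markers of other tissues differed between the same pools. All 13 skeletal muscle markers, among them Acta1 and Myl1, were lower in P465L, with a median difference of -1.28 and 0 past the threshold, and their summed signal was 73310.8, 12380.7 and 5817.2 in P465L pools A, B and C, against 36165.3, 118299.3 and 21390.6 in wild-type pools A, B and C. Wild-type pool B, the highest for most liver transcripts, was also the highest of all arrays for the sum of muscle markers and of red blood cell markers, of which 3 of 7 were found. Their sum was 37669 to 43369 over the P465L pools, against 36459.8, 101901.9 and 48525.7 in wild-type pools A, B and C. P465L pool A had the next highest muscle sum of all arrays, at a mean of -0.32 for the 10 genes. Adipocyte markers had a median difference of -0.65 with 12 of 14 negative and 1 past the threshold, the fatty acid elongase Elovl3 at -2.35 ± 0.34 (limma adjusted p = 0.0181), and summed to 144909 to 324008 in P465L pools and 263258 to 423217 in wild-type pools. The part of these tissues in the liver transcripts' difference was not tested.

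Sums of several lists of the aortic wall and of blood cells also did not overlap. Aortic smooth muscle markers summed to 450020 to 478219 in P465L pools and 522565 to 538903 in wild-type pools, fibroblast markers to 345256 to 367112 in P465L pools and 383451 to 414510 in wild-type pools, and endothelium markers to 34754 to 36645 in P465L pools and 37736 to 44159 in wild-type pools. By single genes, 5 of 10 smooth muscle, 3 of 8 fibroblast and 2 of 9 endothelium markers had all P465L pools below all wild-type pools. Of all genes 6.76% did so. Lymphocyte markers ran the other way, with 2948 to 3140 in P465L pools and 1549 to 2725 in wild-type pools. Among them 4 of 6 had all P465L pools above all wild-type pools, where 6.19% of all genes did. No gene of these 4 lists passed the threshold, and their part in the liver transcripts' difference was not tested.

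For 2 further lists the sums overlapped. Those of Kupffer and liver sinusoid cells, the non-hepatocyte cells of liver, summed to 3589 to 5427 in P465L pools and 3354 to 4270 in wild-type pools over 8 genes led by Clec1b, and their median difference was 0.13. Intestinal epithelium markers summed to 1559 to 1912 in P465L pools and 1500 to 1830 in wild-type pools over 17 genes. No gene of either list passed the threshold, and no marker of either was listed at 0. The ratio of 3′ to 5′ signal of Gapdh, a sign of RNA quality, was 0.83, 0.93 and 0.85 in P465L pools and 0.83, 0.80 and 0.82 in wild-type pools.

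**Figure D3:**
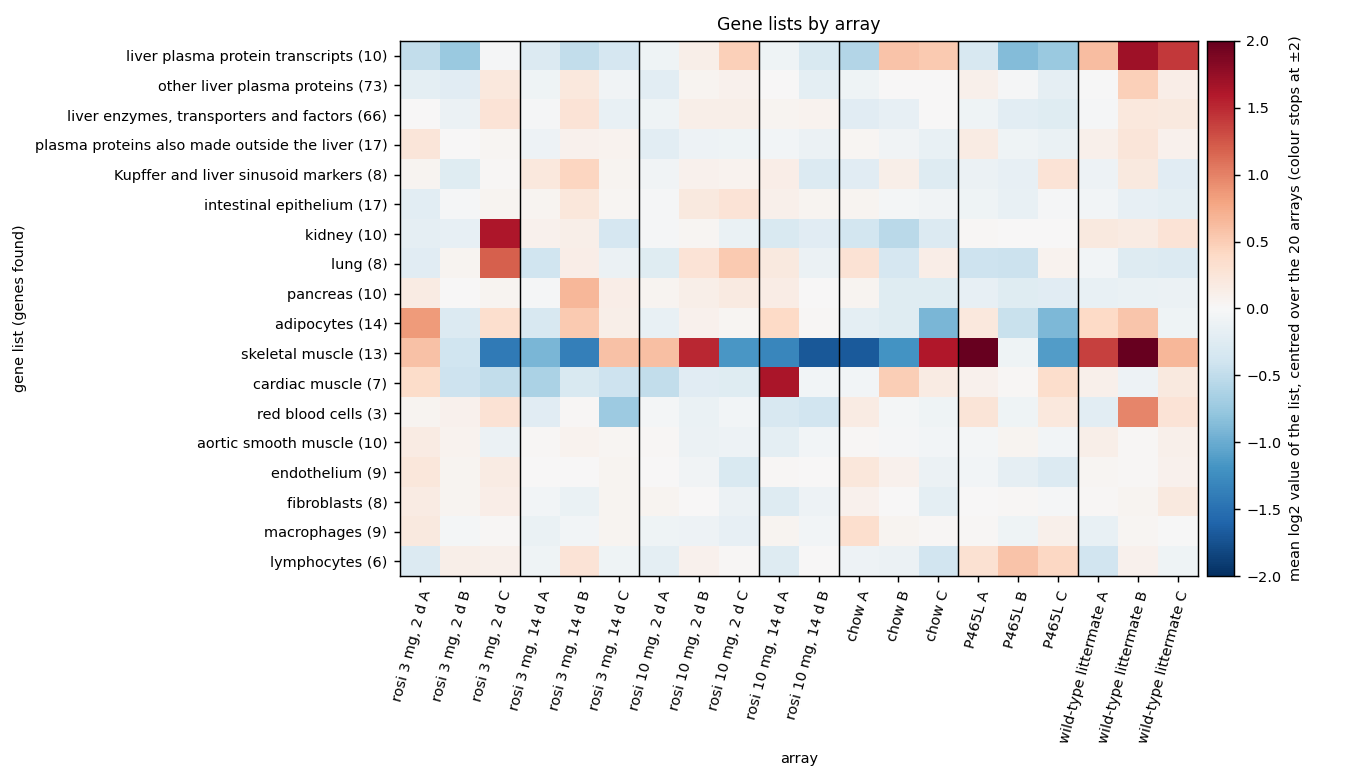
Mean log2 value of each gene list in each array, centred over the 20 arrays, with red above and blue below the list's own average. The 10 plasma protein transcripts are highest in wild-type littermate pools B and C at 1.69 and 1.41, while the skeletal muscle row peaks in P465L pool A at 2.35 and wild-type pool B at 3.10, and the kidney row in pool C of the low dose and short time at 1.61.

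Rosiglitazone pools were compared with chow pools, whose own spread was wide. Averaged over the 4 drug groups, 9 of 10 genes were lower and 1 higher, with a median difference of -0.41 against 0.02 over all genes, and for Fgb, at -0.01, the sign turned under another scaling. The fit called 0 of the 10 where it called 0.176% of all genes. The mean over the 10 genes in chow pools A, B and C was -0.59, 0.57 and 0.52, so chow pool A lay below all but 1 of the 11 drug pools while chow pools B and C lay above all 11.

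Alb showed the widest range. Its signal was 52.6, 23.3 and 196.0 at 3 mg/kg/day for 2 days, 297.8, 240.4 and 237.5 at 3 mg/kg/day for 14 days, 300.9, 589.9 and 1268.7 at 10 mg/kg/day for 2 days and 323.8 and 210.3 at 10 mg/kg/day for 14 days, against 208.4, 877.2 and 1412.0 in chow pools. All 3 pools of the low dose and short time lay below all chow pools and the other drug groups overlapped chow. The highest of those 3, at 196.0, was close to chow pool A, at 208.4. The differences from chow, in the same order, were -2.32 ± 0.66, -1.16 ± 0.66, -0.09 ± 0.66 and -1.13 ± 0.73, and the 4-group average was -1.17 ± 0.52, with -0.67 without chow pool C and -1.87 without chow pool A.

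Apoa2 and Fgg also had all pools below chow at the low dose and short time, with chow pool A the closest. For Apoa2 the highest drug pool, at 367.0, lay close to chow pool A, at 375.6. For Fgg all drug pools and chow pool A were under the offset, where signals have no reliable order. At 3 mg/kg/day for 2 days Apoa2 read 216.0, 236.1 and 367.0, against 375.6, 629.1 and 590.2 in chow pools, a difference of -0.81 ± 0.42, and Fgg read 11, 19.0 and 14.0, against 29.0, 86.2 and 219.7 in chow pools, a difference of -0.95 ± 0.39. Together with Alb these made 3 of 10 genes with all drug pools below all chow pools, where 5.52% of all genes separated that way, and the limma fit called 0 genes of any kind, 0.0%, with 615 lower and 744 higher at an unadjusted p under 0.05. Pool C of that drug group, the one with the kidney and lung markers, was the highest of its 3 pools for Alb, Apoa1, Apoa2, Ttr and Fga. Without it the differences from chow were -2.75 ± 0.72 for Alb, -0.99 ± 0.47 for Apoa2 and -0.94 ± 0.45 for Fgg, and the mean over the 10 genes was -0.79, against -0.60 with it.

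By its brightest probe set, Ttr was lowest at 3 mg/kg/day for 14 days, with 143.2, 67.2 and 139.2, against 263.2, 651.9 and 540.4 in chow pools, a difference of -1.52 ± 0.57. It was the 1 gene of 10 without overlap there, where 5.54% of all genes were separated and lower. The limma fit called 0.0% of genes, with 633 lower and 830 higher at an unadjusted p under 0.05. Of the other Ttr probe sets, 1 read 165.1, 178.5 and 23.0 there, below chow pools at 180.6, 579.3 and 438.0. The rest overlapped chow, with 127.3, 4.6 and 84.7 against 100.7, 431.7 and 458.4, and with 40.8, 62.7 and 35.7 against 79.6, 95.9 and 58.8. At that dose and time 9 of 10 were lower, where 45.3% of all genes were, with a median of -0.64. The signs of Apoa1 at -0.09 and Fgb at -0.01 turned with the scaling. At 10 mg/kg/day for 14 days, with 2 pools, Ttr read 205.3 and 220.8 and Apoa2 333.8 and 271.1. Both lay below all chow pools, at -0.89 ± 0.64 and -0.67 ± 0.47, where 15.2% of all genes did so. Limma called 0.0% of genes there, with 983 lower and 788 higher at an unadjusted p under 0.05. The other Ttr probe sets all overlapped chow at this dose and time, reading 234.1 and 195.6, 109.9 and 130.1, and 36.8 and 73.6. Their lowest chow values were 180.6, 100.7 and 58.8, in the same order.

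The high dose for 2 days left the median of the list near chow, while single genes ranged from -0.98 ± 0.64 for Apoa1 to 0.83 ± 0.48 for Apoc3. Apoa1 read 13.9, 12.3 and 192.2 there, against 13.1, 289.4 and 404.3 in chow pools, so the groups overlapped. At 10 mg/kg/day for 2 days 5 genes were lower and 5 higher, the median was 0.02, and the signs of Fga at 0.10 and Ahsg at 0.05 turned under another scaling, while the fit called 0 of the 10 and 0.214% of all genes. Apoc3 was higher than chow in every drug group, with differences of 0.43 ± 0.48, 0.48 ± 0.48, 0.83 ± 0.48 and 0.40 ± 0.54 in the order of dose and time used above. Much of this rested on chow pool A, whose Apoc3 signal was 4.1, against 315.0 and 210.5 in chow pools B and C. The 4-group average of 0.54 ± 0.39 became -0.17 without that pool. At 10 mg/kg/day for 2 days the Apoc3 difference stayed positive with any 1 pool left out, at 0.13 to 1.30. In the other drug groups the lowest such values were -0.28, -0.22 and -0.30, in the same order. The 4 drug groups share the same 3 chow pools, so their differences are not independent of each other.

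Of the other liver genes, 1 of 139 passed the threshold against chow, in 1 drug group. Pon1, paraoxonase of high density lipoprotein, had 656.9, 534.4 and 574.7 at 10 mg/kg/day for 2 days, against 2639.6, 2083.1 and 1195.4 in chow pools, and fell by 1.57 ± 0.30 on the log2 scale (limma adjusted p = 0.0464). Its arrays did not overlap, and the call was lost when any 1 of the 6 pools was left out. Pon1 did not follow the 10 genes over the arrays, with r of 0.06 to their mean, and it was higher in P465L than in wild-type pools, at 0.68 ± 0.30 (limma adjusted p = 0.765). In the average over the drug groups 57 of the 139 were lower and 82 higher, with a median of 0.07 and 0 past the threshold, and at an unadjusted p under 0.05 there were 8 lower and 5 higher, where 5.58% and 5.7% of all genes were.

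Across the 20 arrays the 10 genes varied together, most closely with Alb. Over the 45 pairs, Pearson's r had a median of 0.58, from 0.01 for Apoc3 with Ahsg to 0.84 for Alb with Apoa2, and 27 pairs exceeded 0.5. These values describe 20 arrays in which the wild-type littermates hold the 3 highest means of the 10 genes, and without those 3 arrays the median was 0.30 over 17. Taken as deviations from each group's mean, which removes the differences between groups, the median was 0.26, and 36 of 45 pairs were above 0. Leaving the widely spread chow pools out of these deviations gave a median of 0.16, with 32 of 45 pairs above 0.

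**Figure D4:**
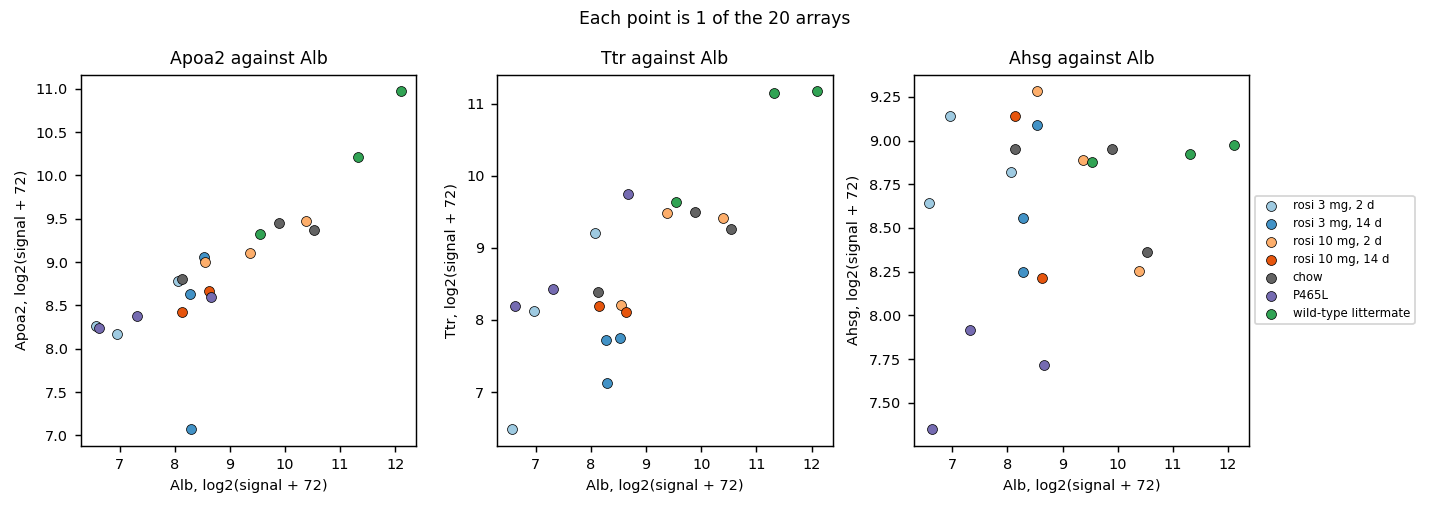
log2(signal + 72) of Apoa2, Ttr and Ahsg against that of Alb, 1 point for each of the 20 arrays, coloured by group. Apoa2 and Ttr climb with Alb and wild-type littermate pools B and C stand at the upper right, while Ahsg shows no such climb and has its 3 lowest values in the P465L pools.

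The genes differed in how closely they kept to the rest. The correlation of Alb with the mean of the other 9 was 0.92 over 20 arrays, 0.87 without the wild-type littermates and 0.92 within groups. The corresponding values were 0.86, 0.67 and 0.60 for Apoa2 and 0.79, 0.52 and 0.73 for Ttr. Ahsg had the lowest values, with 0.28, 0.14 and -0.27. Fgb and Fgg had 0.50 and 0.77 over the 20 arrays but 0.10 and 0.26 within groups. Within groups Ahsg ran opposite to Fga with r of -0.70, the lowest of the 45 pairs. Fga was under the offset in all P465L pools, where signals have no reliable order. All points share the array, its scaling and its depth of hybridisation.

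Outside the list, the genes whose levels ran closest to the mean of the 10 were ranked by r over the 20 arrays. Serpina1c led with 0.91, and with 0.86 when the highest array, wild-type pool B, was left out. F12 followed with 0.79, then Cavin4, a caveolar protein of muscle, and Oas1b, an interferon-induced gene, with 0.78 each, Fam3b, Sele and Cyp3a11 with 0.74 each, Mup3 and 1700006F04Rik with 0.73 each and Cyp2c29 with 0.72. Of these 10, 5 were on the other liver lists, as were 12 of the top 30. The lists make up 139 of all 18183 other genes. Without the wild-type littermates, r for these top 10 ran from 0.15 for 1700006F04Rik to 0.77 for Sele. It was 0.76 for Serpina1c, 0.40 for Fam3b and 0.34 for Oas1b. F12, Fam3b, Mup3 and 1700006F04Rik had mean signals under the offset. The likeness did not extend to most of the liver lists, where the median r was 0.14 for other plasma proteins and 0.16 for enzymes, transporters and factors, against -0.02 over all genes and 0.45 for the skeletal muscle markers. For the muscle markers that median was 0.27 without the highest array and 0.11 without the wild-type littermates.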

How the data were processed

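Total RNA of 20 aorta pools was hybridised to Affymetrix Mouse Genome 430 2.0 arrays. The deposited intensity values are linear signals made by the authors with MAS5, per the submitters' processing notes; its version is not given in the sources used here, and no detection calls were used. Each array has a 2% trimmed mean of 1500, which shows the scaling. Low MAS5 signals are imprecise; the offset used here damps this noise and understates the change of dim genes.

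Of 45101 probe sets, 34945 had 1 symbol, 932 several and 9160 none, beside 64 controls. The brightest probe set stood for each of 18193 genes, without a filter, as log2(signal + 72). limma 3.58.1 (R 4.3.3) fitted 7 group means over all arrays with a variance trend, tested on simulated data, with Benjamini-Hochberg adjusted p under 0.05. Precision is limited by the number of arrays, and p-values measure spread between pools. Deviations of 14 same-letter pairs correlated at -0.068 to 0.102 (median -0.006), and the main fit did not pair arrays by letter. Whether letters mark shared days is not given in the sources used here, and these correlations over all genes cannot decide it. The members and all lists were chosen with earlier results of these data known. Named besides the 10 genes are the 10 others most like their mean, liver-list genes called or else the 5 brightest and the 5 most alike, and the brightest of tissue lists. Elovl3, 1 of 3 genes called in P465L, is also named, after its value was seen, as is the third, Map3k12. Alternatives were the offset, quantile normalisation, probe set means, a brightness filter, no variance trend, a replicate block and leaving out each pool. Promoters are RefSeq's, GRCm38.p6; 8 of the 10 genes matched.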

Additional observations from a re-analysis of the deposited data

Results flagged for a closer look

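For the brighter probe set of Fabp1, all 3 pools of rosiglitazone at 3 mg/kg/day for 14 days lay below the chow mean, at -1.11, -0.34 and -0.91 on the log2 scale, and both pools at 10 mg/kg/day for 14 days lay above it, at 0.39 and 0.15. The difference between the group means was -1.06 and was not tested. The 3 chow pools of Fabp1 read 22.3, 324.0 and 160.3, which spans the drug pools of both groups. The other probe set of Fabp1 did not show this: it read 55.2, 2.6 and 22.5 at 3 mg/kg/day for 14 days and 49.7 and 55.9 at 10 mg/kg/day for 14 days, all below its chow pools at 70.7, 446.1 and 180.0. With another scaling or with probe set means, the Fabp1 difference of 0.27 at 10 mg/kg/day for 14 days lay between -0.41 and 0.54. For Fgb, the pools at 10 mg/kg/day for 2 days lay above and those at 10 mg/kg/day for 14 days below the chow mean. The group means differed by 0.15, which was not tested, and all of these signals were under the offset of 72.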

How the results depend on the processing

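The mean difference over the 10 genes kept its sign between P465L and wild-type pools under every alternative that kept all 10. It was -1.88, and -2.57 with an offset of 16, with -2.19 to -1.66 when 1 pool was left out. The brightness filter kept only 3 of the 10, so it gives no mean over all of them, and the mean of those 3 was -2.36. For rosiglitazone over chow the leave-one-out ranges were -0.76 to -0.17 for the average, -0.98 to -0.39 (3 mg/kg/day, 2 days), -0.92 to -0.34 (3 mg/kg/day, 14 days), -0.38 to 0.20 (10 mg/kg/day, 2 days) and -0.74 to -0.16 (10 mg/kg/day, 14 days). Counts of called genes moved more. The average's 32 genes became 0 without the variance trend, and 0 to 59 with 1 pool left out, being 0 without any 1 chow pool. At 3 mg/kg/day for 14 days 0 became 1 without the trend. At 10 mg/kg/day for 2 days 39 became 13 with probe set means, 1 without the trend, 21 with the replicate block and 0 to 15 with 1 pool left out. At 10 mg/kg/day for 14 days 0 became 6 with the offset of 16, 16 with quantile normalisation, 11 with probe set means, 30 with the brightness filter and 0 to 2 with 1 pool left out. In P465L 3 became 5 with probe set means or without the trend, and 0 to 1 with 1 pool left out; the call of Fga was lost without any 1 of the 6 pools. For other liver genes, the average's 0 became 1 with quantile normalisation or probe set means, the 1 at 10 mg/kg/day for 2 days became 0 with probe set means, without the trend or without any 1 pool, and the 0 in P465L became 1 with probe set means or without the trend. The causes were not tested. The replicate block moved no other count by over 1.5 times. Signals under the offset have no reliable order.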
